A study of Homo sapiens with 6 samples.

Results

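The nuclear genes examined here encode proteins that copy, transcribe or stabilise the products of mitochondrial DNA. They were taken as a fixed list of 10 symbols (TFAM, POLRMT, TFB1M, TFB2M, TEFM, MTERF1, POLG, TWNK, LRPPRC and SLIRP), and all 10 were found by Ensembl identifier among the 62438 genes of the deposited table. Sequenced RNA came from cells that the labels call MDA-MB-453, an established line from a human breast tumour. They had been transfected at 10 nM with an siRNA against N6AMT1 (si-N6AMT1, 3 libraries) or a scrambled siRNA (si-CN, 3 libraries) and harvested after 48 h. All libraries thus came from siRNA-transfected cells, and no untransfected cells were compared. The study asks which genes respond to loss of N6AMT1, which it describes as a methyltransferase for N6-methyladenine in DNA.

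Mitochondrial DNA carries genes for 13 proteins of the respiratory chain together with rRNAs and tRNAs, and depends on nuclear genes for the rest. POLRMT is its RNA polymerase, and TFAM and TFB2M start transcription with it at the promoters. TFAM also coats and packs the mitochondrial genome into nucleoids. TEFM keeps the polymerase elongating and MTERF1 binds a termination site beyond the rRNA genes. TFB1M, a relative of TFB2M, methylates the small mitochondrial rRNA. POLG and TWNK are the replicative DNA polymerase and helicase. LRPPRC and SLIRP form a complex that binds mitochondrial mRNAs and protects them from decay.

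Library totals ran from 19739247 to 21289740 counts. N6AMT1 had 60 to 72 counts in si-N6AMT1 and 135 to 141 in si-CN libraries (edgeR log2 fold change -1.10, FDR = 3.65e-07), so the targeted transcript was lower, but still detected, in all 3 libraries labelled si-N6AMT1. Markers matched the cell line given in the labels only in part, and the basal genes had the higher summed level. MDA-MB-453 is known as a line of luminal character, yet several basal genes were well expressed. Levels are in CPM, that is counts scaled to library size by edgeR's TMM method. KRT17 had 2788 to 2872 CPM, KRT5 755 to 838 CPM and TP63 206 to 232 CPM. Of the luminal genes, KRT19 (0.38 to 0.68 CPM), GATA3 (2.4 to 3.7 CPM) and FOXA1 (7.7 to 8.9 CPM) were low. KRT8 (595 to 658 CPM), KRT18 (450 to 490 CPM) and ERBB2 (51.8 to 54.3 CPM) were clearly expressed. Of the tested markers, 2 of 6 luminal and 3 of 4 basal genes were higher in si-N6AMT1 cells at a false discovery rate (FDR) under 0.05, and none was lower. Over all 17320 genes tested, 9.78% were higher and 11.5% lower at this threshold. The shifts of the called markers were small, with log2 fold changes from 0.08 (KRT18) to 0.18 (KRT14). The summed luminal level, most of it from KRT8 and KRT18, was 1110 to 1139 CPM in si-CN and 1193 to 1213 CPM in si-N6AMT1 libraries. The summed basal level was 3899 to 3981 CPM in si-CN against 3969 to 4053 CPM in si-N6AMT1 libraries. Among stromal and blood markers, COL1A1 was the 1 gene tested (44.5 to 47.0 CPM, log2 fold change 0.0013). COL1A2 and DCN had at most 8 counts in any library, and CD3E and PTPRC at most 3. The part of these marker shifts in the results below was not tested.

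All 10 genes passed the filter on low counts and were tested together with the other genes, 17320 in all. One of them, TFAM, was lower in si-N6AMT1 cells at FDR under 0.05, whereas TWNK and SLIRP were higher and the other 7 were not called. Of all genes tested, 11.5% were called lower and 9.78% higher. For the 10 genes the median log2 fold change was 0.07, against 0.0039 over all genes tested. Values did not overlap between the groups for 5 of the 10 genes (TFAM, POLRMT, POLG, TWNK and SLIRP), where 34.9% of all genes tested showed the same. In bulk RNA, fewer cells expressing a gene and less of its RNA per cell cannot be told apart. The labels do not say whether replicates were separate cultures, so p-values measure the spread between these libraries, which may be technical.

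**Figure D1:**
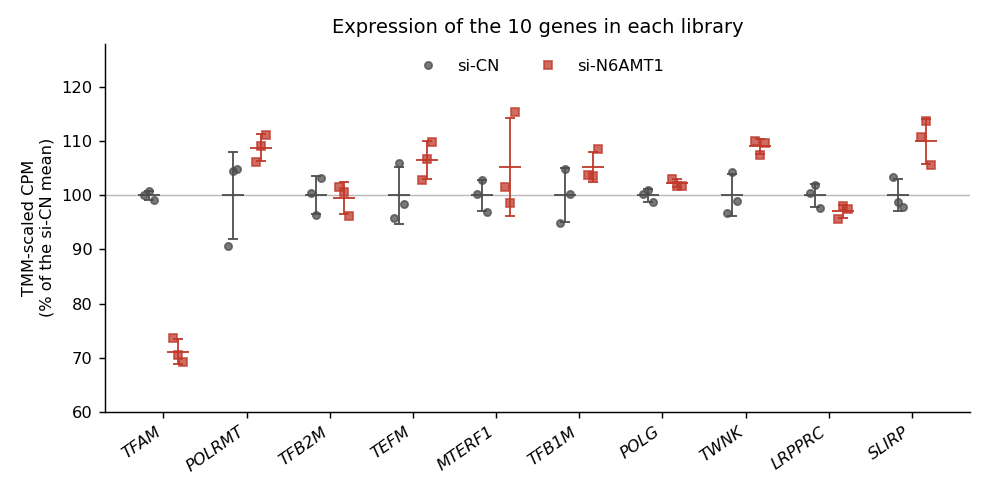
TMM-scaled CPM of each gene in each library, as a percentage of the gene's si-CN mean (grey circles, si-CN; red squares, si-N6AMT1; bars, mean and SD, n = 3). All 3 si-N6AMT1 libraries lie far below si-CN for TFAM, while the si-N6AMT1 means of the other 9 genes lie much closer to the si-CN mean.

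TFAM (ENSG00000108064) lies on the plus strand of chromosome 10, bases 60145105 to 60158980 of GRCh37 (hg19), which is the build of the other gene positions too. TFAM mRNA measured 57.4, 55.0 and 53.9 CPM in si-N6AMT1 replicates 1 to 3. In si-CN it was 78.0, 78.6 and 77.3 CPM. The lowest si-CN library was thus well above the highest si-N6AMT1 library. The means were 55.4 ± 1.79 CPM and 78.0 ± 0.646 CPM (SD, n = 3 each), and the log2 fold change was -0.49 with a standard error of 0.0343 (edgeR quasi-likelihood test, FDR = 3.67e-10). The fitted fold change equals a fall of TFAM mRNA by 28.9%. Behind these values were 1106 to 1138 counts in si-N6AMT1 and 1532 to 1639 counts in si-CN libraries. By p-value TFAM ranked 64 of the 17320 genes, and 2.04% of tested genes had a log2 fold change as low or lower. No other annotated gene overlaps TFAM, and its processed copies TFAMP1 and TFAMP2 had 1 count at most in any library. When any 1 library was omitted, the log2 fold change of TFAM ran from -0.52 to -0.47.

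**Figure D2:**
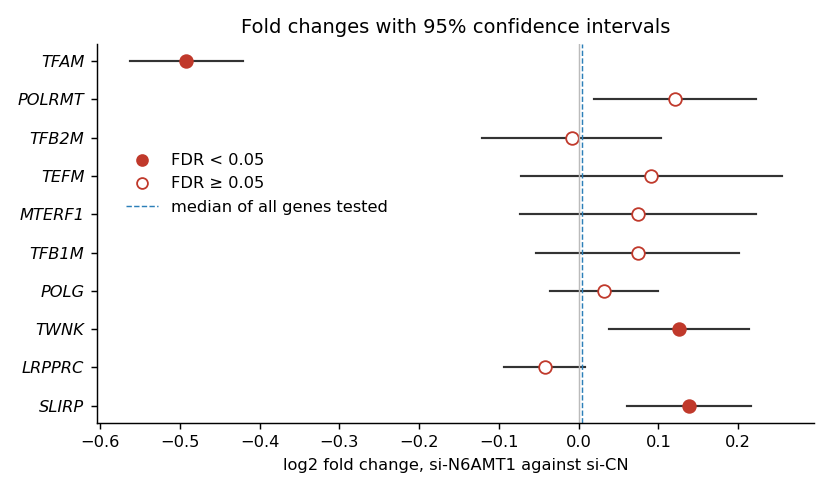
Log2 fold change of the 10 genes in si-N6AMT1 against si-CN cells, with 95% confidence intervals from edgeR that are not adjusted for the number of genes (filled circles, FDR under 0.05; dashed line, median of all genes tested). TFAM at -0.49 stands apart from the other 9, which lie between -0.04 and 0.14.

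The promoter of TFAM is shown because TFAM was the member that fell. Its sequence, from 250 bases before to 50 bases after the start of transcription, was taken from RefSeq on GRCh38.p14 (chr10:58385160-58385459, plus strand). Capitals mark a match to the NRF1 motif GCGCANGCGC on the minus strand, at positions -63 to -54 from the start.

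TFAM promoter: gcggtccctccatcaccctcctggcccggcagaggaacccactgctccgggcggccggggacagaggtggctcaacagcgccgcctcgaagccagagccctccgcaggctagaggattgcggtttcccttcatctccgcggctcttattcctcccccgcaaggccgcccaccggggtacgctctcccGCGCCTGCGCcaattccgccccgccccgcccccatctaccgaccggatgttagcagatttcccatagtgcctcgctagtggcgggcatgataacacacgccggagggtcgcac

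NRF1 is a nuclear transcription factor known for its sites at genes of mitochondrial function. In the same window GGGCGG, the SP1 motif, matched on either strand at 5 places, and the 3 that lie between -48 and -33 overlap their neighbours by 1 base.

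The other genes of the core transcription machinery were not called. POLRMT (ENSG00000099821; chromosome 19, 617221 to 633537, minus strand) had 41.8, 43.0 and 43.7 CPM in si-N6AMT1 and 35.7, 41.1 and 41.3 CPM in si-CN libraries. The groups did not overlap, but si-CN replicate 1 stood well below the other 2. The log2 fold change of POLRMT was 0.12 (FDR = 0.0877), and it was 0.056 without si-CN replicate 1. TFB2M (ENSG00000162851; chromosome 1, 246703863 to 246729563, minus strand) had 24.2, 24.0 and 22.9 CPM against 23.9, 22.9 and 24.6 CPM in si-CN. Its groups overlapped, and the 95% interval of its log2 fold change ran from -0.12 to 0.10. Thus a change in TFB2M mRNA as large as that of TFAM lies outside the interval.

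TEFM (ENSG00000172171; chromosome 17, 29224354 to 29233256, minus strand) was measured at 11.05, 11.5 and 11.8 CPM in si-N6AMT1 and 10.3, 11.4 and 10.6 CPM in si-CN libraries. The groups overlapped (log2 fold change 0.09, 95% interval -0.07 to 0.25, FDR = 0.472). MTERF1 (ENSG00000127989; chromosome 7, 91321323 to 91510016, minus strand) had 15.9, 15.5 and 18.1 CPM against 15.7, 16.1 and 15.2 CPM. Only si-N6AMT1 replicate 3 lay above all si-CN libraries, and without it the log2 fold change of MTERF1 was 0.0012 instead of 0.07 (FDR = 0.526 with all libraries). TFB1M (ENSG00000029639; chromosome 6, 155577268 to 155635627, minus strand) had 19.4, 19.4 and 20.3 CPM in si-N6AMT1 and 17.8, 19.7 and 18.8 CPM in si-CN. Its groups overlapped as well (log2 fold change 0.07, 95% interval -0.05 to 0.20, FDR = 0.452), and without si-CN replicate 1 the log2 fold change of TFB1M was 0.038. TEFM and MTERF1, at 202 to 242 and 309 to 372 counts per library, were the members with the fewest counts, and their intervals were correspondingly wide.

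Of the replication proteins, the helicase gene was called and the polymerase gene was not. TWNK (ENSG00000107815; chromosome 10, 102747124 to 102754160, plus strand) had 41.3, 40.3 and 41.2 CPM in si-N6AMT1 and 36.3, 39.1 and 37.1 CPM in si-CN libraries. Every si-N6AMT1 library lay above every si-CN library. The means of TWNK were 40.9 ± 0.524 CPM and 37.5 ± 1.46 CPM (SD, n = 3 each), giving a log2 fold change of 0.13 (FDR = 0.0374) with a standard error of 0.0425, a fitted increase of 9.13%. This call was lost without si-CN replicate 1 (log2 fold change 0.10, FDR = 0.145) or replicate 3 (0.12, FDR = 0.112), and without si-N6AMT1 replicate 1 (0.12, FDR = 0.0886), replicate 2 (0.14, FDR = 0.0605) or replicate 3 (0.12, FDR = 0.101). DESeq2 did not call TWNK either (adjusted p = 0.175). MRPL43 overlaps TWNK on the opposite strand with 819 to 923 counts per library (log2 fold change -0.04, FDR = 0.566). The strand setting of the counting is not stated, so reads of the 2 genes in the shared part may not be separated.

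POLG (ENSG00000140521; chromosome 15, 89848429 to 89878092, minus strand) had 67.5, 66.6 and 66.6 CPM in si-N6AMT1 and 65.6, 66.1 and 64.6 CPM in si-CN libraries. The groups did not overlap, yet the difference was small, with a log2 fold change of 0.03 and a 95% interval from -0.04 to 0.10 (FDR = 0.555). FANCI overlaps POLG on the opposite strand and had more counts than it, 2258 to 2509 per library, with a log2 fold change of -0.03 (FDR = 0.554).

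Of the 2 genes of the mRNA-stabilising complex, SLIRP was called higher and LRPPRC was not called. SLIRP (ENSG00000119705; chromosome 14, 78174414 to 78227447, plus strand) had 65.8, 67.6 and 62.7 CPM in si-N6AMT1 and 61.4, 58.7 and 58.1 CPM in si-CN libraries. All si-N6AMT1 libraries were higher, although replicate 3 came close to si-CN replicate 1. Its means were 65.4 ± 2.49 CPM and 59.4 ± 1.76 CPM (SD, n = 3 each), giving a log2 fold change of 0.14 (FDR = 0.00942) with a standard error of 0.0373, a fitted increase of 10.1%. The call was lost without si-N6AMT1 replicate 2 (log2 fold change 0.11, FDR = 0.0669) or si-CN replicate 3 (0.12, FDR = 0.0534), and DESeq2 gave an adjusted p of 0.0523.

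LRPPRC (ENSG00000138095; chromosome 2, 44113363 to 44223365, minus strand), the larger partner, had 207.4, 212.4 and 211.3 CPM in si-N6AMT1 and 217.7, 220.9 and 211.7 CPM in si-CN libraries. Its log2 fold change was -0.04 with a 95% interval from -0.09 to 0.0075 (FDR = 0.239). The groups overlapped in CPM, although on the TPM scale used for levels the si-CN libraries of LRPPRC were all higher, so whether they overlap depends on the scaling. SLIRP thus rose without a called change in LRPPRC. Because both genes are read in the same library, their ratio does not depend on library scaling. The log2 ratio of LRPPRC to SLIRP counts per transcript length was -2.48, -2.48 and -2.38 in si-N6AMT1 and -2.31, -2.22 and -2.27 in si-CN libraries. Every si-N6AMT1 library lay below every si-CN library, with a mean difference of -0.18 (two-sided exact permutation test, p = 0.1, the smallest p that 3 libraries against 3 allow).

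SLIRP starts close to ALKBH1, which the study names as the demethylase for N6-methyladenine in DNA and which is read from the other strand. On GRCh37 ALKBH1 spans 78138747 to 78174366 on the minus strand, so its annotated start at 78174366 lies head to head with that of SLIRP at 78174414. ALKBH1 was not called (log2 fold change 0.11, FDR = 0.163), with 502 to 523 counts in si-CN and 539 to 581 in si-N6AMT1 libraries. SNW1, which overlaps the annotated span of SLIRP on the opposite strand, went the other way (log2 fold change -0.10, FDR = 0.0132). It had 2297 to 2623 counts per library, more than SLIRP. As for TWNK and MRPL43, reads of SLIRP and SNW1 in a shared part may not be separated.

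Promoters of 9 of the 10 genes were matched by symbol in RefSeq, and TWNK was not among them. NRF1 motif matches were found in 3 of the 9, those of TFAM, POLRMT and TFB1M, against 5.78% of 35116 promoters of the same length. The ETS core CCGGAAG, which the mitochondrial regulator GABPA can bind, matched in 5 of the 9 (POLRMT, TFB1M, MTERF1, TEFM and SLIRP), against 10.3% of all promoters. The YY1 motif ATGGCGG matched in SLIRP alone among the 9, against 5.55%, and SP1 and CCAAT motifs matched in 5 each, against 44.95% and 34.6%. Both strands were searched. The 9 were counted by gene, whereas the background counts each promoter entry. Windows of the 9 genes hold 55.3% (LRPPRC) to 68% (TFAM) GC, and the background was not matched for GC content. These shares therefore do not measure enrichment. POLRMT and TFB1M are shown as the members that share the NRF1 motif with TFAM, and SLIRP, for which RefSeq lists 2 starts and the downstream one is used, as the member with the highest fold change. Capitals mark NRF1, ETS and YY1 matches, and all 3 sequences are RefSeq on GRCh38.p14, from chr19:633488-633787 (minus strand), chr6:155314435-155314734 (minus strand) and chr14:77707853-77708152 (plus strand).

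POLRMT promoter: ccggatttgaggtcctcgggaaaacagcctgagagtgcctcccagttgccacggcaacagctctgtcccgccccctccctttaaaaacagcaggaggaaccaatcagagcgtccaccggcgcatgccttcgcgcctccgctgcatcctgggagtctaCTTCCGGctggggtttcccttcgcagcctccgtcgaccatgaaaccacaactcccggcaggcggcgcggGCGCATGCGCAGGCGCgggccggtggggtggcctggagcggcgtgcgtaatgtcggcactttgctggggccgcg

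TFB1M promoter: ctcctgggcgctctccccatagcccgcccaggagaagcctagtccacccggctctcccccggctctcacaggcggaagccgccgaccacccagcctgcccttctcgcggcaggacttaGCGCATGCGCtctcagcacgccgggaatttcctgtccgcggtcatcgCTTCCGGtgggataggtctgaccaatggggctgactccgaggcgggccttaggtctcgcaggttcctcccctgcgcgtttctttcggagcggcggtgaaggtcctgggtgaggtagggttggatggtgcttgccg

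SLIRP promoter: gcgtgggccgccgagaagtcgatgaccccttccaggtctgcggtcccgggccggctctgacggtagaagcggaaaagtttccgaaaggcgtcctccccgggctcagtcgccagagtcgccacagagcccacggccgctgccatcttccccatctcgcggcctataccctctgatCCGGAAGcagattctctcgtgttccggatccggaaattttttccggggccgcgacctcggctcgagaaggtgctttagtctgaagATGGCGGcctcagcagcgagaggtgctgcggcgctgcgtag

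In POLRMT, the NRF1 motif matched at -24 to -15 on both strands and again at -18 to -9, so the 2 places overlap. In TFB1M it matched on both strands at -132 to -123. Of the 3 genes with this motif, TFAM fell by 0.49 on the log2 scale, while POLRMT and TFB1M had log2 fold changes of 0.12 and 0.07. In the SLIRP sequence shown, the ETS core matched at -76 to -70. The YY1 motif matched at positions 10 to 16 after the start, within the transcribed sequence. A match is a description of letters and does not show that a factor binds there.

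Sites in 3′ untranslated regions (UTRs) were searched for 2 sequences of 7 bases, TTCACAT and TCACATA. These were picked in earlier work on the fold changes of these same libraries, so a match is no independent evidence, and their share among lower genes was not tested here. In GENCODE v44 on GRCh37, 4 of the 10 genes hold such a site in the 3′ UTR of the reference transcript, compared with 22.2% of 13308 tested protein-coding genes with a 3′ UTR. The 3′ UTRs of the 10 genes run from 37 bases (SLIRP) to 4146 bases (TFAM). The comparison was not matched for UTR length, so it does not measure enrichment. The sites are given in the sense of the mRNA, with the site in capitals and up to 12 bases on either side.

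TFAM (chr10:60155292-60155321, plus strand): cctaggtataaTTCACATtgtattcagagt

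MTERF1 (chr7:91501546-91501575, minus strand): tttatacataaTTCACATAttcaatttacc

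POLG (chr15:89859696-89859725, minus strand): aagccccaaagTTCACATtaactcaggcat

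LRPPRC (chr2:44114612-44114641, minus strand): gggtcacactgTTCACATcaggggagacct

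MTERF1 holds both sequences joined in 1 site of 8 bases, and the other 3 hold TTCACAT alone. Only TFAM fell, since MTERF1 had a log2 fold change of 0.07, POLG of 0.03 and LRPPRC of -0.04. The site of TFAM lies 469 bases into a 3′ UTR of 4146 bases and is covered by 1 of its 3 annotated coding transcripts. That of LRPPRC is covered by 1 of 17, that of MTERF1 by 2 of 6 and that of POLG by 4 of 9. The deposited counts are given per gene and do not show which of them the cells used. UTRs of the 2 called genes that rose, TWNK and SLIRP, hold no such site, and that of SLIRP is only 37 bases long.

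To compare levels between genes, counts were divided by the length of the reference transcript and scaled to estimated TPM, in which all genes of a library sum to the same total. In si-CN cells SLIRP had the highest level, 351.4 ± 6.18 TPM (SD, n = 3), followed by LRPPRC at 73.0 ± 1.61 TPM. TFAM came next with 34.5 ± 0.462 TPM, and POLG (32.6 ± 0.478 TPM) and TFB2M (29.7 ± 1.09 TPM) were just below. POLRMT (23.2 ± 2.13 TPM) and TWNK (23.1 ± 1.10 TPM) were the only neighbours in this order whose si-CN libraries overlapped. TEFM had 18.3 ± 1.12 TPM and TFB1M 14.9 ± 0.898 TPM, and MTERF1 was the lowest with 8.86 ± 0.270 TPM. Against 12295 protein-coding genes with at least 1 TPM, SLIRP stood at the 97.0th percentile and MTERF1 at the 26.7th. After si-N6AMT1, TFAM had 24.5 ± 1.00 TPM and moved from place 3 to place 7 of the 10, below POLG, TFB2M, POLRMT and TWNK. Its si-N6AMT1 libraries, at 23.8 to 25.6 TPM, then overlapped those of POLRMT and TWNK. The values depend on the transcript chosen. With the longest annotated transcript of each gene, TFAM went from 43.8 to 31.3 TPM and was at place 6 in si-N6AMT1 cells, just above TWNK at 31.2 TPM, with overlapping libraries. SLIRP, with 865 in place of 376 bases, then had 193.9 ± 3.67 TPM in si-CN and was still the highest.

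**Figure D3:**
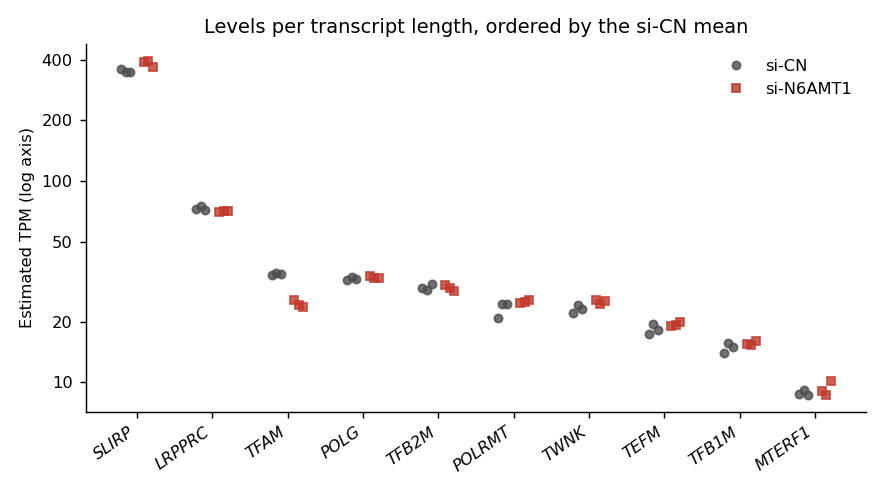
Estimated TPM of the 10 genes on a log axis, ordered by the si-CN mean, with 1 point per library (grey circles, si-CN; red squares, si-N6AMT1). Levels ran from 8.86 TPM for MTERF1 to 351.4 TPM for SLIRP in si-CN, and the points of TFAM lie between 34.06 and 34.98 TPM in si-CN against 23.8 to 25.6 TPM in si-N6AMT1.

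Other genes of the pathway were read from lists of known function. Among 18 genes for maintenance of mitochondrial DNA, 2 were lower and none was higher (median log2 fold change 0.01). RRM2B, a ribonucleotide reductase subunit that supplies nucleotides for mitochondrial DNA, had 31.5 ± 0.274 CPM in si-N6AMT1 and 38.2 ± 4.03 CPM in si-CN (SD, n = 3 each), or -0.28 ± 0.0573 on the log2 scale (standard error; FDR = 0.00106). EXOG, a mitochondrial nuclease, had a log2 fold change of -0.17 (FDR = 0.0394). Among 24 genes for processing, maturation and decay of mitochondrial RNA, 3 were lower and 1 was higher (median -0.03). The 3 were PDE12 and MTPAP, which remove and add poly(A) tails of mitochondrial RNA, and FASTKD5, which acts in maturation of mitochondrial mRNAs. Their log2 fold changes were -0.19, -0.20 and -0.19, with FDR = 0.00214, 0.0308 and 0.0465. FASTKD1, of the same family as FASTKD5, rose by 0.20 on the log2 scale (FDR = 0.00295).

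Among 18 genes for modification of mitochondrial RNA, 1 was lower and 4 were higher (median -0.02). MRM3, an rRNA methyltransferase, had a log2 fold change of -0.31 (FDR = 0.00207, standard error 0.0682), the lowest of these 3 lists. RPUSD3 and PUS1, both of the pseudouridine synthase families, and the tRNA methyltransferase TRMT5 rose by 0.17, 0.19 and 0.22 on the log2 scale (FDR = 0.00438, 0.00727 and 0.00445). Among 9 nuclear regulators of mitochondrial genes, ESRRA was higher and YY1 was lower. ESRRA, an orphan nuclear receptor, rose from 50.8 ± 2.29 to 61.4 ± 0.437 CPM, which is 0.28 ± 0.0381 on the log2 scale (FDR = 1.04e-05). YY1, a zinc finger factor, went from 249.6 ± 2.46 to 225.5 ± 3.47 CPM, which is -0.15 ± 0.0230 on the log2 scale (FDR = 5.30e-05). NRF1 and GABPA, chosen after their values had been seen because their motifs were searched, were not called (log2 fold changes 0.08 and -0.05, FDR = 0.467 and 0.340). Over all genes tested the shares called lower and higher were 11.5% and 9.78%.

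The mRNAs made from mitochondrial DNA were lower in the same libraries in which TFAM was lower. Their summed level was 20720 to 22164 CPM in si-N6AMT1 and 26182 to 28173 CPM in si-CN libraries. Of the 13 protein-coding genes, 12 were called lower (median log2 fold change -0.36), all but MT-ND6. MT-ATP8 overlaps MT-ATP6, and MT-ND4L overlaps MT-ND4, so these 13 are not all separate transcripts. The 12 called genes are annotated on the plus strand and MT-ND6 on the minus strand. Whether the 12 changed independently of each other was not tested. MT-CO3, MT-CO1 and MT-ATP6 had the smallest FDR, with log2 fold changes of -0.55, -0.36 and -0.58 beside -0.49 for TFAM. Whether one change followed from the other was not tested.

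**Figure D4:**
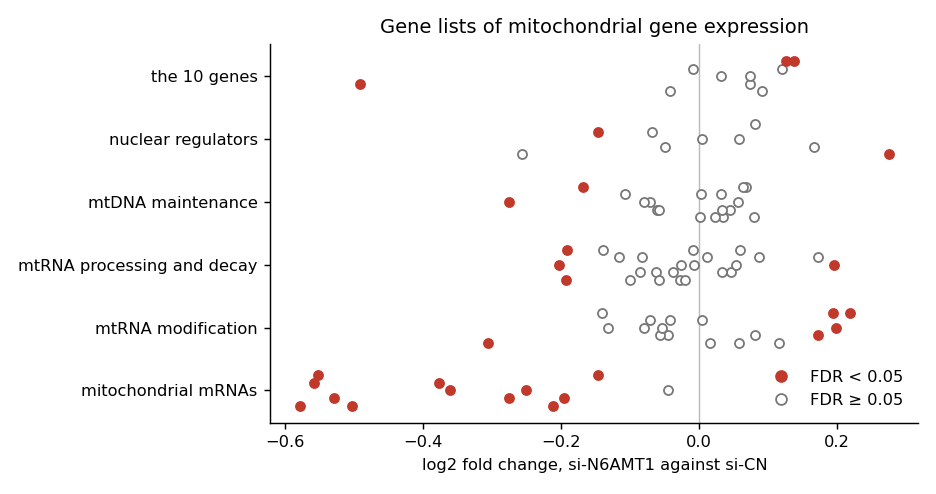
Log2 fold change of every tested gene in the 6 lists, with genes in rows by list and spread vertically for legibility (filled circles, FDR under 0.05). TFAM at -0.49 lies within the range of the mitochondrial mRNAs (-0.58 to -0.05) and below every gene of the other 4 nuclear lists, whose lowest value is -0.31.

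The genes whose pattern over the 6 libraries was most like that of TFAM were sought among all genes tested, by the mean absolute difference of log2 CPM after centring each gene on its own mean. PRPS1P2, a processed copy of a phosphoribosyl pyrophosphate synthetase gene, was nearest with a difference of 0.0150, then INTS2 with 0.0174 and ABL2 with 0.0204. INTS2 is a subunit of the Integrator complex and ABL2 a tyrosine kinase. The log2 fold changes of PRPS1P2, INTS2 and ABL2 were -0.54 (FDR = 0.0836), -0.51 (FDR = 1.11e-07) and -0.49 (FDR = 1.06e-11). Since these genes were picked for a pattern like that of TFAM, fold changes near its own follow from the choice.

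**Figure D5:**
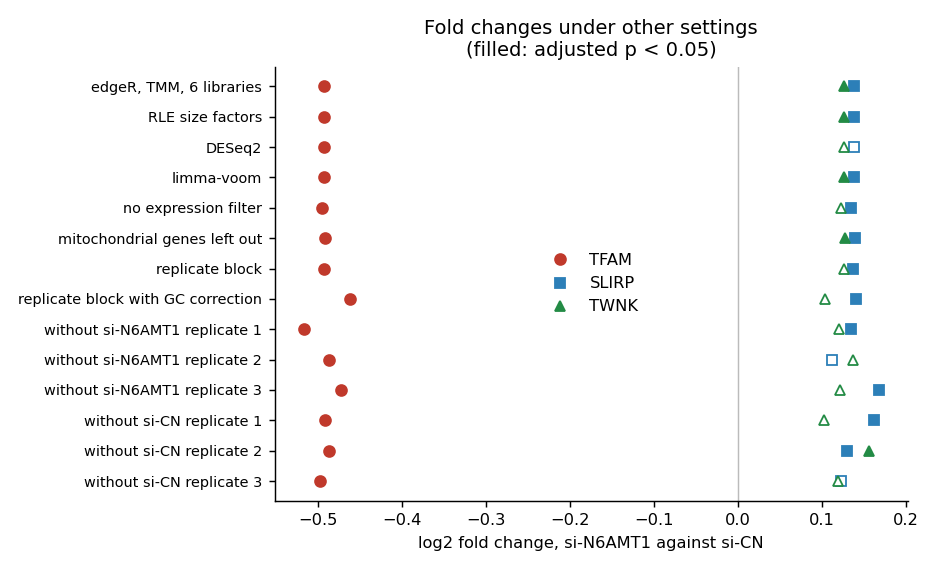
Log2 fold change of TFAM (circles), SLIRP (squares) and TWNK (triangles) under each normalization, test and set of libraries, filled where the adjusted p was under 0.05. TFAM stayed between -0.52 and -0.46 and was called in each, whereas SLIRP and TWNK kept their direction but were not called in several.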

How the data were processed

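RNA-seq data of 3 si-N6AMT1 and 3 si-CN libraries were analysed. Total RNA was made into stranded mRNA libraries. The authors trimmed reads with Trim Galore, and ran kallisto v0.46.0 against GENCODE v33 annotation of hg19. The deposited table gives 1 estimated count (expected count) per gene and library, in whole numbers and not normalized. Estimated counts of overlapping genes, isoforms and gene copies depend on how kallisto divides reads. At 1 CPM a gene has 19.6 to 21.2 counts per library.

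Symbols, positions and transcripts came from GENCODE v44 on GRCh37, which matched 62149 of 62438 identifiers. 1 marker, PECAM1, was not matched. Testing was done in R v4.3.3 with edgeR v4.0.16, using its expression filter at a minimum count of 10, TMM scaling and a quasi-likelihood test of all 6 libraries without covariates. P-values were adjusted by the Benjamini-Hochberg method over 17320 genes (FDR), with a threshold of 0.05. Chi-square values of library pairs, divided by their degrees of freedom, were 1.35 to 1.69 within and 6.07 to 6.86 between groups. Each library was kept as a replicate, but these values do not show whether replicates were separate cultures or technical. The common biological coefficient of variation fitted by edgeR was 1.85%. The procedure was tested on simulated counts with planted changes larger than those of the 10 genes. That test therefore does not show how well changes as small as those of TWNK and SLIRP are called.

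The members and lists were chosen with earlier results of these data known. Named genes are N6AMT1, the 10 genes, up to 3 called genes with the smallest FDR per list and direction, and the 3 genes nearest to the member with the smallest FDR. ALKBH1 and overlapping genes were named for their position. Alternatives were RLE factors, DESeq2 v1.42.0, limma-voom (limma v3.58.1), no filter, mitochondrial genes left out, a replicate block, the same block plus a GC correction, the longest transcript for levels, and each library left out. The other data of the study were not analysed here, and 1 marker is not reported here.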

Additional observations from a re-analysis of the deposited data

How the results depend on the processing

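TFAM was lower at an adjusted p under 0.05 in all 13 alternatives (log2 fold change -0.52 to -0.46), as was N6AMT1 (-1.18 to -1.04), and 1 member was called lower in each. The 2 calls of higher members were not kept in every alternative. Called higher were 0 with DESeq2 and 1 without an expression filter, with the replicate block, and with the replicate block and a GC correction. With each library left out it was 0 to 2, and the log2 fold change ran from 0.10 to 0.16 for TWNK and from 0.11 to 0.17 for SLIRP. TWNK, at 0.13, 0.12, 0.13 and 0.10 in these 4 settings in turn, was not called in any of them (adjusted p = 0.175, 0.0788, 0.0560 and 0.118), and SLIRP at 0.14 was not called by DESeq2. TFB2M, which was not called, turned to 0.0085 with the block and GC correction, and ran from -0.035 to 0.017 with a library left out, positive without si-N6AMT1 replicate 3 or si-CN replicate 3. POLG turned to -0.010 with the block and GC correction, where POLRMT had 0.056.

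For the lists, DESeq2 called 1 lower gene in DNA maintenance, 1 lower in RNA processing and 2 higher in RNA modification. The replicate block left 1 lower gene in DNA maintenance, and with GC correction 1 higher in RNA modification. With each library left out, called genes ranged from 1 to 2 lower and 0 to 1 higher (DNA maintenance), 1 to 3 lower and 1 to 2 higher (RNA processing), 1 to 2 lower and 2 to 4 higher (RNA modification), and 1 to 2 lower and 1 to 2 higher (nuclear regulators). Over all genes DESeq2 called 1275 lower and 955 higher, against 1993 and 1694 with edgeR. With the longest annotated transcript, 6 of the 10 genes kept their place in the order of si-CN levels, and SLIRP had 193.9 TPM in place of 351.4. The causes were not tested, except that a fit without 1 library has fewer samples. Same-numbered libraries did not deviate together (correlations of -0.04, -0.04 and 0.0100), so the numbers were not taken as pairs; the block gave 1804 lower and 1522 higher genes. Depth limits TEFM most, with 202 to 242 counts per library and a 95% interval from -0.07 to 0.25.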
